A study of Mus musculus with 72 samples.

Results

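Imprinted genes are transcribed mainly from the maternal or the paternal copy. The 34 mouse genes described here comprise 12 maternally and 22 paternally expressed genes chosen by name, out of 45321 genes in the count tables. Each was represented by its transcript with the highest total over the 72 deposited libraries, with the 4 technical libraries of a sample summed, and 31 of the 34 passed the filter on low counts. They were measured by polyadenylated RNA sequencing in mouse embryonic stem cell lines that have or lack Nup133, a subunit of the Y-complex of the nuclear pore, at day 0, day 2 and day 3 of differentiation towards neuroectoderm.

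The controls were HM1, a male line followed as 2 replicate series, and 1A4, a blastocyst-derived line that carries Sox1gfp/+; the labels give both as Nup133+/+, 40 chromosomes, XY. Lines 14 and 19 are Nup133-/- derivatives of HM1 made with CRISPR/Cas9, labelled with 40 chromosomes and, for line 19, as likely so. Line 319 is blastocyst-derived, Nup133merm/merm and Sox1gfp/+, labelled with 42 chromosomes, XX, and an extra chromosome 8 and 12. Each knockout line entered as 1 series over the 3 days, so there were 3 control and 3 knockout samples a day, 18 in all. Cells grew on DR4 mouse embryonic fibroblast feeders in serum and LIF and were freed of feeders for collection at day 0 or plated in N2B27 medium to day 2, and day 3 followed 24 h in 1 µM retinoic acid. No label says that the 2 HM1 series came from separate thaws or that a line was grown more than once. The p-values between genotypes therefore measure the spread between these samples and lines. Those between lines measure the spread over the days within a line and between the HM1 replicates, and not that between clones.

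The allele to be silenced is marked in the egg or sperm by DNA methylation at imprinting control regions, which the cells copy at each division. At such regions ZFP57, a zinc finger protein that binds the methylated form of a short hexamer, recruits TRIM28 and keeps the mark in embryonic stem cells. Many imprinted genes lie in clusters with a shared control region, and gain or loss of imprints in culture is a known property of embryonic stem cell lines. Expression from the maternal and paternal copies was not separated in these counts, so each value is the sum of both.

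Summed gene counts ranged from 16466724 to 54386795 a sample. Nup133 itself was at 180 to 323 CPM (counts per 1e6 counts, library sizes scaled by the TMM method) in control samples and 14.3 to 37.1 in knockout samples. Some libraries went against their labels: summed CPM of 4 Y-linked genes was 104 to 139 in HM1 and 150 to 327 in 1A4, but 4.18 to 10.4 in line 14 and 3.09 to 8.55 in line 19, which are labelled XY (0.18 to 0.67 in line 319). On chromosome 8, genes had a median log2 difference of -0.47 in line 319 against 1A4 (920 genes), opposite to the extra copy in the label, while chromosome 12 was at 0.50 (620 genes) and X at 0.61. Against HM1, chromosome 8 was at -0.07 in line 14 and -0.27 in line 19. On chromosome 11 the medians against HM1 were -0.31 in line 14, -0.28 in line 19 and -0.16 in 1A4 (1485 genes). Line 319 against 1A4 was at -0.15 there. Line 19 at day 2 stood apart in transcript length, where the longest 10% of transcripts minus the shortest 10% gave -1.77 log2 units relative to the other samples of that day, against -0.36 to 0.45 in the other 17 samples; results that change without it are given below.

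Promoter sequences are shown for the members named in full below that hold the ZFP57 hexamer, because the members were chosen as imprinted genes and this motif marks many control regions. The motif TGCCGC was searched on either strand (reverse GCGGCA) in the 300 bases from 250 before to 50 after each RefSeq start (GRCm38.p6). It was present in 11 of 40 promoters of 26 members (27.5%) against 3813 of 32851 promoters of all genes (11.6%). Member promoters also held more CG dinucleotides (median 13.5 against 7), and the motif contains one. The hexamer is in capitals, here always as GCGGCA on the gene's strand, and a match is not evidence of binding.

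Meg3 (chr12:109540746-109541045, plus strand): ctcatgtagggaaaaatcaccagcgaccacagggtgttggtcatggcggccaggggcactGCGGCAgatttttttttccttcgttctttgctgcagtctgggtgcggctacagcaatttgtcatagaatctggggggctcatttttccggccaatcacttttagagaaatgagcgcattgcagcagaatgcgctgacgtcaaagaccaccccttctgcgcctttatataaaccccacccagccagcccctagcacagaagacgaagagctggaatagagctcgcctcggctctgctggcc

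Igf2 (chr7:142661222-142661521, minus strand, an upstream start): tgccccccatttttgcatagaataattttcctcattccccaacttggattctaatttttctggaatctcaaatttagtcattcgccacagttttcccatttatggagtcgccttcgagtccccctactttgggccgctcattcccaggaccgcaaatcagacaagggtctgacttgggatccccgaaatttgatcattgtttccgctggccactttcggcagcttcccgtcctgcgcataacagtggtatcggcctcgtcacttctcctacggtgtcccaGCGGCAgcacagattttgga

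Grb10 (chr11:12037371-12037670, minus strand): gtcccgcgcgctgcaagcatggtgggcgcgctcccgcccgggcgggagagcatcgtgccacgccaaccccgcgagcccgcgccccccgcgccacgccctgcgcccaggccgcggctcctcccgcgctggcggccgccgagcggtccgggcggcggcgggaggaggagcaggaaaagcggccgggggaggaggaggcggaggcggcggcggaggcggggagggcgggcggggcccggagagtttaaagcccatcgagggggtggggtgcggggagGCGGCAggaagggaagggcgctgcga

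As CPM per kilobase of transcript averaged over the 18 samples, the level was highest for Snrpn (163), a spliceosomal protein gene of the Prader-Willi cluster, and Mest (124), a hydrolase-like gene of mesoderm. Peg10 (117), a retrotransposon-derived gene needed for the placenta, and Gnas (108), which encodes a stimulatory G protein subunit, followed. H19 ranked 7th at 25.4, Meg3 was at 16.5 and Igf2 at 8.54. Usp29, Airn, Slc22a3, Zim1 and Kcnq1ot1 were between 0.39 and 0.12, and for Kcnq1ot1 the annotated transcript of 93092 bases sets the scale.

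Dlk1, Rtl1 and Rian, all of the Dlk1-Meg3 cluster on chromosome 12, could not be assessed. Dlk1, a Notch-pathway ligand-like protein, and Rtl1, a retrotransposon-derived gene, were listed at 0 in every library, and Rian, a long noncoding RNA, had 1 count over 72 libraries. All 3 have a second set of transcript identifiers in the count tables that lies off the reference chromosomes (10, 1 and 19 identifiers, also at 0). Of 104 autosomal protein-coding genes with such a second set, 88 (84.6%) had at most 3 counts over all libraries, against 3315 of 20404 (16.2%) without, and Gstp1, Gcc2 and Rps6kb2 were among those at 0. A 0 for these genes therefore cannot be read as absence of RNA; the cause was not tested.

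H19 and Igf2 share a control region on chromosome 7. H19 (ENSMUSG00000000031, chr7:142575529-142578143, GRCm38, minus strand, 5 exons) is a maternally expressed long noncoding RNA, and Igf2 (ENSMUSG00000048583, chr7:142650769-142659489, minus strand, 4 exons) is a paternally expressed growth factor. H19 fell in both HM1-derived knockout lines and not in line 319. At days 0, 2 and 3 its CPM was 40.4, 31.3 and 47.2 in HM1 replicate 1, 76.2, 49.3 and 81.0 in replicate 2, and 56.6, 70.9 and 125 in 1A4. In the knockout lines it was 9.63, 3.00 and 2.83 in line 14, 10.1, 10.1 and 6.80 in line 19, and 71.3, 131 and 222 in line 319. Every sample of lines 14 and 19 lay below every control sample, and line 319 lay above 1A4 on each day.

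Against HM1, over the 3 days, H19 fell by 3.42 ± 0.50 on the log2 scale (SE) in line 14 and by 2.55 ± 0.48 in line 19 (edgeR quasi-likelihood test, Benjamini-Hochberg adjusted p = 0.00417 and 0.0107). In line 319 against 1A4 the log2 difference was 0.75 ± 0.47 (adjusted p = 0.37). The test of equal knockout-minus-control differences in the 3 lines was passed, with line 319 3.73 log2 units above the mean of lines 14 and 19 (adjusted p = 0.0135). The genotype comparison did not pass at day 0 (log2 -2.04 ± 0.94, adjusted p = 0.449), day 2 (-1.47 ± 0.96, 0.402) or day 3 (-1.77 ± 0.99, 0.318). Without line 319 it passed on each day, with log2 fold changes of -2.37, -2.79 and -3.90 (adjusted p = 0.0387, 0.0206 and 0.00259). In a fit of the HM1-derived lines alone, which also leaves out 1A4, H19 passed at day 3 (-3.77, adjusted p = 0.0122) and not at day 0 or day 2. Without HM1 replicate 2 the H19 calls were lost (log2 -2.96 and adjusted p = 0.0931 in line 14, -2.11 and 0.163 in line 19). The 113 other tested genes within 5 Mb had medians of 0.08, 0.17 and 0.03 in lines 14, 19 and 319.

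Igf2 was at 19.3, 27.3 and 69.2 CPM in HM1 replicate 1 at days 0, 2 and 3, at 49.4, 49.7 and 113 in replicate 2, and at 22.8, 31.7 and 95.1 in 1A4. It was at 5.97, 17.2 and 75.5 in line 14, at 7.11, 17.1 and 53.9 in line 19, and at 16.4, 9.38 and 46.1 in line 319. All knockout samples were below all controls at day 0 and day 2, and the groups overlapped at day 3. The knockout-minus-control log2 difference was -1.60 ± 0.43 at day 0 (adjusted p = 0.11), -1.32 ± 0.42 at day 2 (0.108) and -0.67 ± 0.41 at day 3 (0.371), and none passed in the edgeR test. DESeq2 called Igf2 at day 0 and day 2 (adjusted p = 0.0108 and 0.0334). The 2 HM1 replicates differed by 1.02 log2 units for this gene (unadjusted p = 0.0166, adjusted p = 1), a size within the range of the differences between genotypes.

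H19 and Igf2 are expressed in fibroblasts, and the cultures had been grown on fibroblast feeders. The summed CPM of 14 fibroblast markers at day 0 was 133 to 254 in controls and 102 to 178 in knockout samples, and 83.5 to 138 over all samples at day 2. At day 3 it was 174 to 227 in controls and 165 to 247 in knockout samples. Summed primitive endoderm markers at day 3 were 117 to 132 in controls and 140 to 243 in knockout samples. The largest part of each sum was Lama1, at 56.2 to 74.9 in controls, 126 in line 14, 172 in line 19 and 63.4 in line 319. The other markers did not move together. Gata4, Sox7 and Pdgfra were above all controls in each knockout line, and Dab2 was below them (19.7 to 22.96, against 28.9 to 33.9). Gata6 and Foxa2 were below all controls in lines 14 and 19 only, and Sox17 was above them in line 319 only. Summed mesendoderm markers (6 genes) at day 0 were 48.9 to 101 in controls and 12.3 to 16.6 in knockout samples, without overlap. At day 2 they were 13.9 to 27.7 in controls, 10.2 in line 14, 9.65 in line 19 and 24.9 in line 319. Only line 319 overlapped the controls there, and 20.9 of its sum was Eomes. In bulk samples fewer cells of a type and less RNA per cell cannot be told apart, and the part of these cells in the H19 and Igf2 values was not tested.

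**Figure D1:**
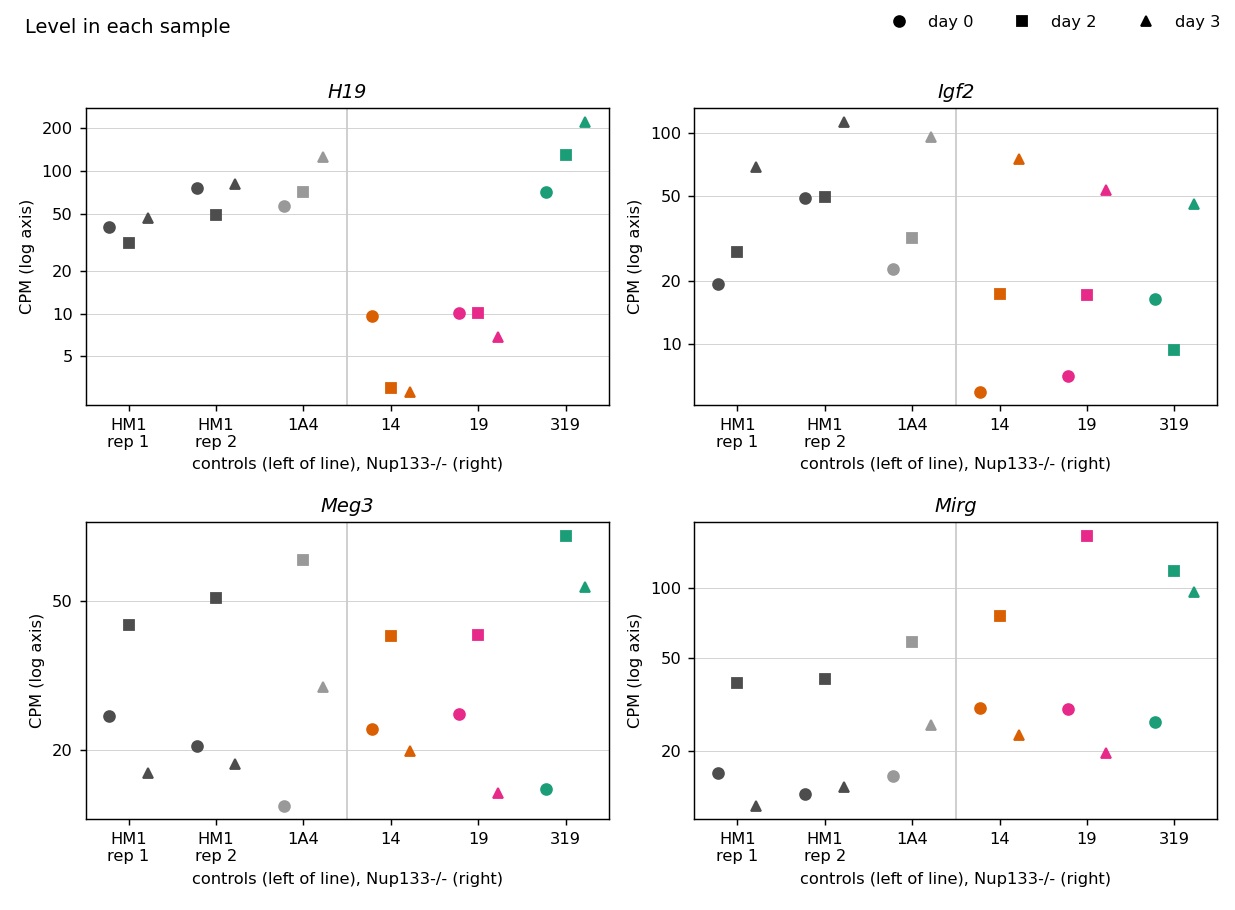
CPM (log axis) of H19, Igf2, Meg3 and Mirg in each of the 18 samples, by series on the x axis, with circles for day 0, squares for day 2 and triangles for day 3. H19 in lines 14 and 19 lies at 2.83 to 10.1, below all controls, and in line 319 at 71.3 to 222.

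In the Dlk1-Meg3 cluster the measured members were 2 maternally expressed noncoding RNAs. Meg3 (ENSMUSG00000021268, chr12:109541007-109559189, plus strand, 9 exons) starts the maternal transcript chain, and Mirg (ENSMUSG00000097391, chr12:109730959-109749460, plus strand, 15 exons) hosts microRNAs further downstream. Meg3 transcripts ending at 109559189 and at 109571721 had the same total of 22409 counts. Meg3 was at 24.7, 43.1 and 17.3 CPM at days 0, 2 and 3 in HM1 replicate 1, at 20.5, 50.7 and 18.3 in replicate 2, and at 14.2, 64.3 and 29.5 in 1A4. It was at 22.8, 40.3 and 19.9 in line 14, at 25.0, 40.5 and 15.3 in line 19, and at 15.7, 74.4 and 54.5 in line 319. Lines 14 and 19 overlapped HM1 closely, with log2 differences of -0.02 ± 0.30 and -0.06 ± 0.31, and none of the lines was without Meg3 RNA. Line 319 was 0.50 ± 0.35 above 1A4 (adjusted p = 0.436), where the 98 other tested genes within 5 Mb had a median of 0.51.

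Mirg was higher in each knockout line than in its control on each day. It was at 16.1, 39.3 and 11.6 CPM at days 0, 2 and 3 in HM1 replicate 1, at 13.02, 40.7 and 14.1 in replicate 2, and at 15.7, 59.0 and 25.9 in 1A4. It was at 30.7, 75.6 and 23.5 in line 14, at 30.3, 168 and 19.5 in line 19, and at 26.6, 119 and 95.8 in line 319. At day 0 and day 2 every knockout sample was above every control, and at day 3 lines 14 and 19 lay between HM1 and 1A4. The log2 differences were 0.97 ± 0.33 in line 14 (adjusted p = 0.193), 1.37 ± 0.33 in line 19 (0.0287) and 1.37 ± 0.40 in line 319 (0.0427), by edgeR. Without its day 2 sample the difference in line 19 was 0.84 (adjusted p = 0.133), and without HM1 replicate 1 or 2 neither line's call held (adjusted p = 0.166 and 0.272 in line 19, 0.0945 and 0.104 in line 319). Without line 14 they also missed the threshold (0.0537 and 0.0688), as line 19 did without 1A4 (0.0521). Knockout against control gave 0.99 ± 0.40 at day 0 (adjusted p = 0.349), 1.44 ± 0.40 at day 2 (0.0796) and 1.30 ± 0.41 at day 3 (0.0731). The 98 other tested genes within 5 Mb had medians of 0.04, 0.07 and 0.51 in lines 14, 19 and 319. The part of that regional difference in the Mirg values of line 319 was not tested.

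Between genotypes, 1 imprinted gene passed the test on each day, and it was a different gene each time. At day 0 it was Grb10, against 0.854% of all 18273 genes tested. At day 2 it was Nespas (1.6% of all genes) and at day 3 Phlda2 (5.2%). Counting without a test, the 3 knockout values did not overlap the 3 control values for 7 of 31 members at day 0 (17.8% of all genes), 7 at day 2 (21.7%) and 6 at day 3 (35.2%). Without line 319, 5, 6 and 7 members passed at the 3 days, H19 among them on each day, and without line 19 at day 2, 3, 0 and 7 passed. Those fits also called more of all genes: 406, 1374 and 2019 without line 319, and 380, 381 and 3007 without line 19 at day 2, against 156, 292 and 951 with all samples. The median log2 difference over the members was -0.18, -0.21 and 0.08 at the 3 days, against 0.01, 0.02 and 0.02 over all genes.

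Grb10 (ENSMUSG00000020176, chr11:11930508-12037401, minus strand, 17 exons) encodes an adaptor that restrains insulin and growth factor signalling and is maternally expressed in most tissues and paternally in neurons. Its CPM at days 0, 2 and 3 was 122, 339 and 571 in HM1 replicate 1, 114, 299 and 506 in replicate 2, and 30.3, 176 and 229 in 1A4. It was 301, 432 and 1104 in line 14, 284, 198 and 1161 in line 19, and 88.5, 138 and 235 in line 319. Both lines from blastocysts were at the low end on each day, and the groups overlapped even at day 0, where line 319 was below HM1. With background as a term, knockout samples were 1.38 ± 0.28 log2 units higher at day 0 (adjusted p = 0.0289), -0.15 ± 0.28 at day 2 (0.791) and 0.76 ± 0.28 at day 3 (0.122). Without that term the day 0 difference was 1.34 with an adjusted p of 0.534. It also missed the threshold without line 14 (1.30, adjusted p = 0.141), without HM1 replicate 1 or 2 (0.201 and 0.239) and without 1A4 (0.0717). It was called in 6 of 13 alternatives, with log2 values of 1.297 to 1.495. The difference of 1A4 from HM1 was -1.23 ± 0.34 (adjusted p = 0.23, and 0.022 in DESeq2), opposite in sign to that between genotypes. The 23 other tested genes within 5 Mb had medians of -0.31, -0.36 and -0.15 in lines 14, 19 and 1A4 against HM1. In line 319 against 1A4 their median was -0.04.

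Nespas (ENSMUSG00000086537, chr2:174281237-174295436, minus strand) is a paternally expressed antisense RNA of the Gnas cluster and shares 4.94% of its exonic bases with Gnas on the opposite strand. It was at 2.91, 1.89 and 1.96 CPM at days 0, 2 and 3 in HM1 replicate 1, at 2.55, 2.56 and 1.60 in replicate 2, and at 3.15, 1.88 and 2.34 in 1A4. It was at 2.67, 4.01 and 2.58 in line 14, at 3.25, 6.56 and 3.02 in line 19, and at 4.65, 5.10 and 5.56 in line 319. All knockout samples were above all controls at day 2 and at day 3, while the groups overlapped at day 0. The log2 difference was 1.29 ± 0.29 at day 2 (edgeR adjusted p = 0.0351), and 0.88 ± 0.28 at day 3 (0.0824). Without line 19 at day 2 the former was 1.01 with an adjusted p of 0.0745. It also missed the threshold without HM1 replicate 1, HM1 replicate 2, 1A4 or line 19 (adjusted p = 0.283, 0.183, 0.162 and 0.0881).

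Phlda2 (ENSMUSG00000010760, chr7:143501545-143502541, minus strand, 2 exons), a maternally expressed gene that limits placental growth, was lower in the knockout at day 3. Its CPM at days 0, 2 and 3 was 25.4, 17.4 and 16.3 in HM1 replicate 1, 21.8, 15.4 and 18.8 in replicate 2, and 20.1, 13.1 and 15.4 in 1A4. It was 26.4, 11.9 and 9.77 in line 14, 20.9, 12.2 and 4.33 in line 19, and 13.3, 5.88 and 7.69 in line 319. Every knockout sample was below every control at day 2 and at day 3. The log2 difference was -0.19 ± 0.27 at day 0 (adjusted p = 0.926), -0.65 ± 0.27 at day 2 (0.2) and -1.19 ± 0.27 at day 3 (0.0225). The day 3 call missed the threshold without HM1 replicate 1, HM1 replicate 2 or 1A4 (adjusted p = 0.123, 0.162 and 0.131). At day 3 summed embryonic stem cell markers were 618 to 722 CPM in controls and 310 to 931 in knockout samples, and summed neural markers 296 to 351 and 274 to 927. Summed trophoblast markers (8 genes) at day 3 were 29.8 to 40.6 in controls, 22.1 in line 14, 11.9 in line 19 and 62.7 in line 319, the line in which Peg10 and Ascl2 were also high. At day 0 and day 2 line 319 was not above the controls (49.1 and 15.6, against 57.7 to 114 and 15.7 to 20.1). The largest parts of its 62.7 at day 3 were Tfap2c at 28.1 (17.4 to 31.3 in controls) and Cdx2 at 19.7 (0.24 to 0.91 in controls). The part of these cells in the Phlda2, Peg10 and Ascl2 values was not tested.

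**Figure D2:**
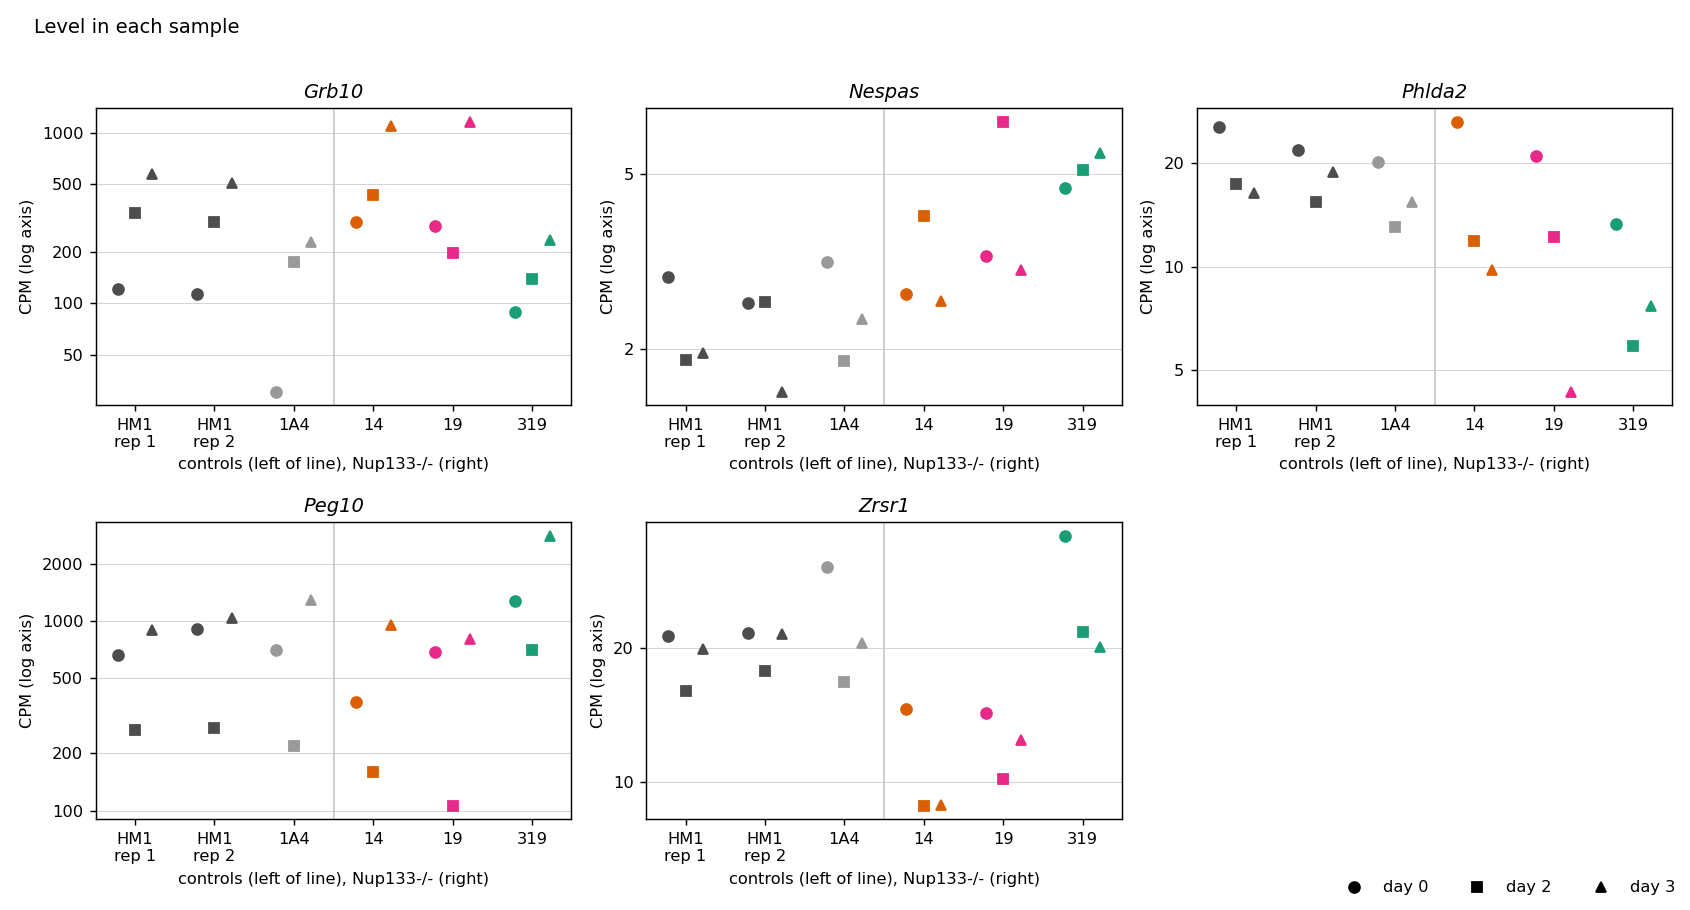
CPM (log axis) of Grb10, Nespas, Phlda2, Peg10 and Zrsr1 in each of the 18 samples, by series on the x axis, with circles for day 0, squares for day 2 and triangles for day 3. Grb10 is lowest in 1A4 at day 0 (30.3), and Zrsr1 in lines 14 and 19 lies below every other sample (14.6 or less).

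To describe each line, lines 14 and 19 were set against HM1 and line 319 against 1A4 over the 3 days. The days of a line stood as its samples. Each knockout line is 1 clone, so this does not separate line from genotype. Line 319 and 1A4 also differ in labelled sex and chromosome number. In line 14, 2 members passed (0.881% of all genes): H19 and Zrsr1, both lower. In line 19, 4 passed (6.36%): H19, Zrsr1 and Usp29 lower and Mirg higher. In line 319, 5 passed (9.3%), all higher: Peg10, Ascl2, Peg13, Nespas and Mirg. The 2 control lines differed in 0 members by edgeR (0.389% of all genes). At an unadjusted p under 0.05 they differed in 5 members and in 1298 of all 18273 genes, and DESeq2 called 1 member, Grb10. Lines 19 and 14 differed in 0 (0% of all genes), with 1 member and 999 of all genes at an unadjusted p under 0.05, and 0 members by DESeq2. The 2 HM1 replicates differed in 0 (0%), with 1 member and 80 of all genes at an unadjusted p under 0.05 (edgeR only).

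Lines 14 and 19 share HM1 as their control, so their differences are not independent of each other. The knockout-minus-control difference depended on the line for 3 members, H19, Peg10 and Zrsr1, against 1.3% of all genes. For all 3 the lines from HM1 stood on one side and line 319 on the other. Conversely, the 9 differences by line and day had 1 sign for 4 of 31 members (7.95% of all genes): Mirg and Peg13 were higher and Igf2 and Sgce lower throughout. Peg13, a noncoding RNA of the Trappc9 locus, was 0.88 ± 0.24 log2 units higher in line 319 (adjusted p = 0.0323), and 0.48 ± 0.21 (0.31) and 0.47 ± 0.21 (0.17) higher in lines 14 and 19.

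**Figure D3:**
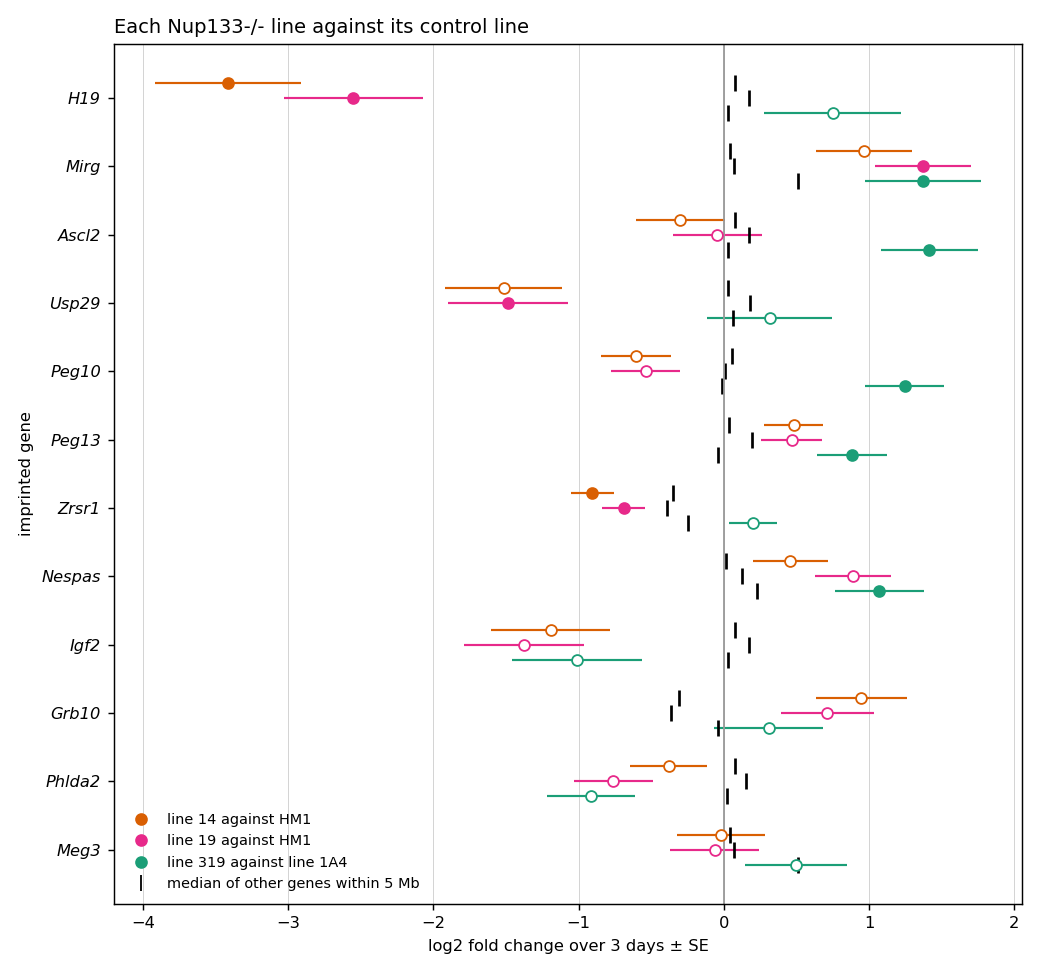
Log2 fold change over the 3 days (x axis, ± SE) of each knockout line against its own control line for 12 imprinted genes (y axis), filled where the adjusted p was below 0.05, with black ticks at the median of other tested genes within 5 Mb. H19, Peg10 and Zrsr1 differ in sign between line 319 and the lines from HM1, and ticks for Mirg and Meg3 in line 319 stand at 0.51.

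Peg10 (ENSMUSG00000092035, chr6:4747306-4760514, plus strand, 3 exons) was highest in line 319. At days 0, 2 and 3 it was at 660, 264 and 895 CPM in HM1 replicate 1, at 901, 272 and 1031 in replicate 2, and at 700.1, 219.9 and 1285 in 1A4. It was at 371, 159 and 946 in line 14, at 687, 106 and 799 in line 19, and at 1276, 703 and 2799 in line 319. Line 319 exceeded every other sample of the same day, and line 14 was lowest at day 0 and line 19 at day 2. From HM1, line 19 differed by -0.17, -1.34 and -0.26 log2 units at days 0, 2 and 3. Its day 2 sample was the one low in long transcripts, and the Peg10 transcript of 6662 bases is among the longest 10%. The log2 difference was 1.25 ± 0.27 in line 319 (adjusted p = 0.0107), -0.60 ± 0.24 in line 14 (0.276) and -0.54 ± 0.24 in line 19 (0.166), and line 319 stood 1.82 above the mean of the others (adjusted p = 0.0292 for a difference among lines). That last call missed the threshold without HM1 replicate 1 (adjusted p = 0.116) or HM1 replicate 2 (0.262). Its neighbour Sgce, a sarcoglycan gene that shares the control region and is read in the opposite direction, did not move with it in line 319, where it was lower on each day by 0.22 to 0.40.

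Zrsr1 (ENSMUSG00000044068, chr11:22972005-22976496, plus strand) is a retrogene of an RNA splicing factor family that lies within Commd1 and is paternally expressed; 9.17% of its exonic bases are shared with Commd1 on the opposite strand, and near-identical sequence in its parent gene could share reads. At days 0, 2 and 3 it was at 21.3, 16.0 and 19.9 CPM in HM1 replicate 1, at 21.7, 17.8 and 21.5 in replicate 2, and at 30.5, 16.8 and 20.6 in 1A4. It was at 14.6, 8.86 and 8.88 in line 14, at 14.3, 10.2 and 12.5 in line 19, and at 35.8, 21.8 and 20.2 in line 319. Lines 14 and 19 were below all other samples. The log2 difference from HM1 was -0.91 ± 0.15 in line 14 (adjusted p = 0.00976) and -0.69 ± 0.15 in line 19 (0.0203), where the 46 other tested genes within 5 Mb had medians of -0.35 and -0.39. In line 319 against 1A4 the same 46 genes were also lower (-0.25), while Zrsr1 was not. In 1A4 against HM1 these genes had a median of -0.19 and Zrsr1 a difference of 0.16. The part of that regional difference in the Zrsr1 values was not tested. Both calls were lost without HM1 replicate 1 (adjusted p = 0.0808 and 0.106) or replicate 2 (0.182 and 0.218). In line 319 it was 0.20 ± 0.17 (adjusted p = 0.523). The difference among lines had an adjusted p of 0.0433, was called in 3 of 8 alternatives and missed the threshold without HM1 replicate 1 (0.201) or 2 (0.332).

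The remaining line calls were of genes with few counts. Ascl2, a transcription factor of the trophoblast and of stem cells, was 1.42 ± 0.33 log2 units higher in line 319 than in 1A4 (adjusted p = 0.0159), with CPM between 0.38 and 6.01 over all samples. Usp29, a paternally expressed deubiquitinase-like gene of the Peg3 cluster, was 1.49 ± 0.41 lower in line 19 (adjusted p = 0.0449) and 1.51 ± 0.40 lower in line 14 (0.0973), between 0.72 and 7.52 CPM. Without line 19 at day 2 the former was -1.19 with an adjusted p of 0.101. It also missed the threshold without HM1 replicate 1, HM1 replicate 2, 1A4 or line 14 (adjusted p = 0.166, 0.278, 0.072 and 0.0678). Nespas was 1.07 ± 0.31 higher in line 319 (adjusted p = 0.0398). In line 319, Ascl2 missed the threshold without HM1 replicate 2 (0.0527). Peg13 and Nespas did so without HM1 replicate 1 (0.0911 and 0.0889), HM1 replicate 2 (0.0882 and 0.0995) or line 14 (0.053 and 0.0614), and Peg10 in no alternative.

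**Figure D4:**
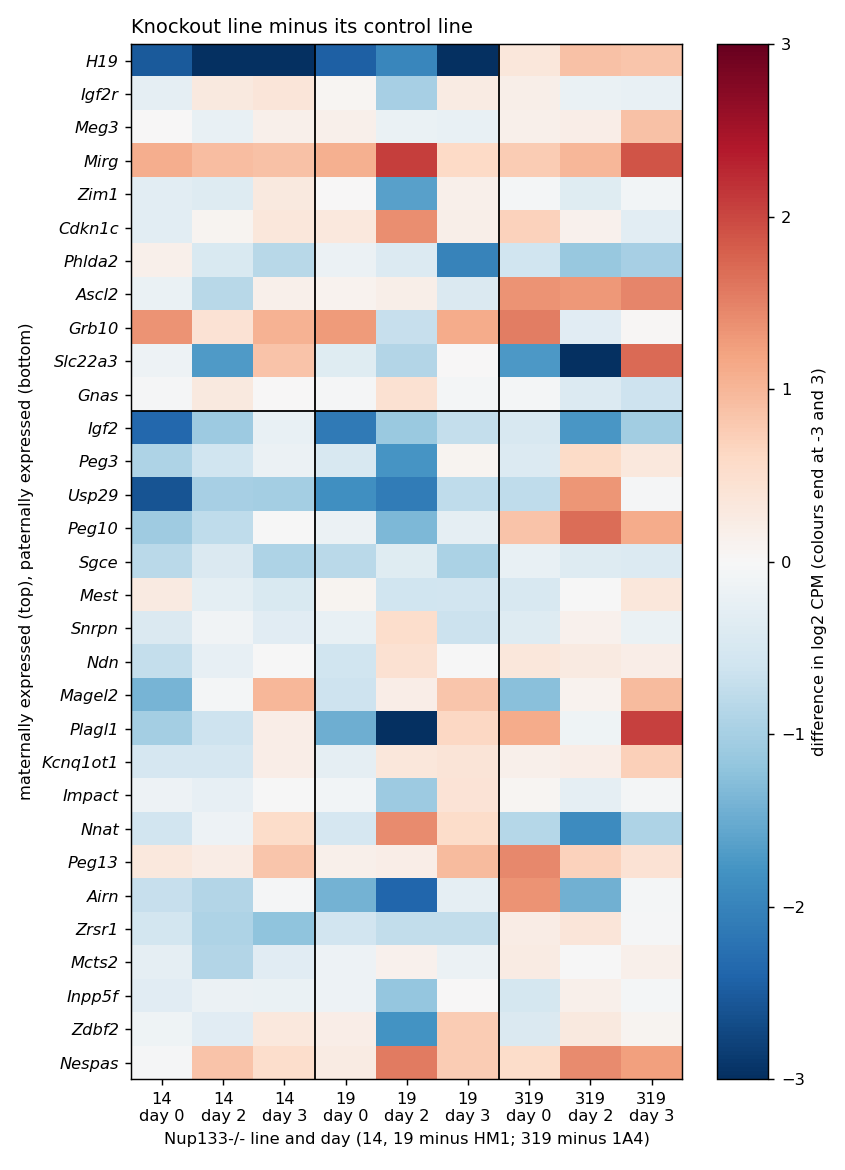
Difference in log2 CPM (colour, blue lower, red higher, ending at -3 and 3) of each knockout line from its control line on each day (columns) for the 31 measured imprinted genes (rows, maternally expressed above the line). Mirg and Peg13 are red and Igf2 and Sgce blue in all 9 columns, and H19 is blue in lines 14 and 19 and red in line 319.

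More imprinted genes passed the test between days than between genotypes or lines. From day 0 to day 2, 22 of 31 passed the test (51% of all genes), 16 higher (27.2%) and 6 lower (23.8%). From day 2 to day 3, in retinoic acid, 19 passed (43.4%), 12 higher (23.3%) and 7 lower (20.2%). The median size of a step, regardless of sign, was 0.81 and 1.06 log2 units for the members against 0.50 and 0.42 for all genes.

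The called genes fell into a few patterns. Gnas, Grb10, Sgce, Ndn and Cdkn1c, a cell cycle inhibitor, and the antisense RNA Airn rose at both steps; Sgce by 1.23 ± 0.17 and 1.16 ± 0.17 log2 units and Ndn, a MAGE-family gene of postmitotic neurons, by 0.99 ± 0.18 and 1.06 ± 0.18. A second set peaked at day 2: Ascl2 rose by 1.32 ± 0.24 and fell by 1.99 ± 0.25, Mirg by 1.78 ± 0.29 and 1.53 ± 0.29, and Meg3 by 1.26 ± 0.25 and 1.09 ± 0.25. Snrpn, Magel2 and Slc22a3, a cation transporter, rose and fell likewise. Peg10 and Plagl1, a zinc finger transcription factor of an imprinted gene network, did the opposite, with Peg10 falling by 1.59 ± 0.20 and rising by 2.27 ± 0.20. Mest, Igf2, Peg13 and Zim1 passed the test at the second step and not at the first, rising by 1.38 ± 0.18, 1.70 ± 0.32, 1.18 ± 0.17 and 1.25 ± 0.25.

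The other called genes changed at the first step and not past the threshold at the second. Nnat, a proteolipid of developing neurons, rose by 1.86 ± 0.28 log2 units to day 2 (edgeR adjusted p = 6.08e-05), and Peg3 (0.88 ± 0.22), Igf2r (0.56 ± 0.17) and Inpp5f (0.45 ± 0.16) rose less. Phlda2 fell by 0.81 ± 0.21, Zrsr1 by 0.59 ± 0.12 and Impact by 0.43 ± 0.16, while Mcts2 fell at both steps (by 0.29 ± 0.11 and 0.51 ± 0.11). H19, Usp29, Kcnq1ot1, Zdbf2 and Nespas passed at neither step. Several calls of day 0 to day 2 were lost in part of the 12 alternatives: Mcts2 was still called in 4, Impact in 6, Airn, Cdkn1c and Inpp5f in 7 each and Igf2r in 8. With a replicate block, Mcts2 (adjusted p = 0.0505) and Impact (0.0501) missed the threshold. From day 2 to day 3, Airn and Slc22a3 were still called in 9 each. Some neighbours moved together, as Meg3 with Mirg and Snrpn with Magel2 at both steps. Others moved apart: Sgce rose while Peg10 fell to day 2, and Ndn rose while Magel2 fell to day 3.

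Several of these genes overlap others, and use of strand in counting is not given in the sources used here. Mest shares 34.2% of its exonic bases with Copg2 on the opposite strand, and Snrpn shares 11.2% with Snurf and 30.5% with Gm38393 on its own strand, so their levels are uncertain. Airn and Slc22a3 were at no more than 0.60 and 4.18 CPM.

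**Figure D5:**
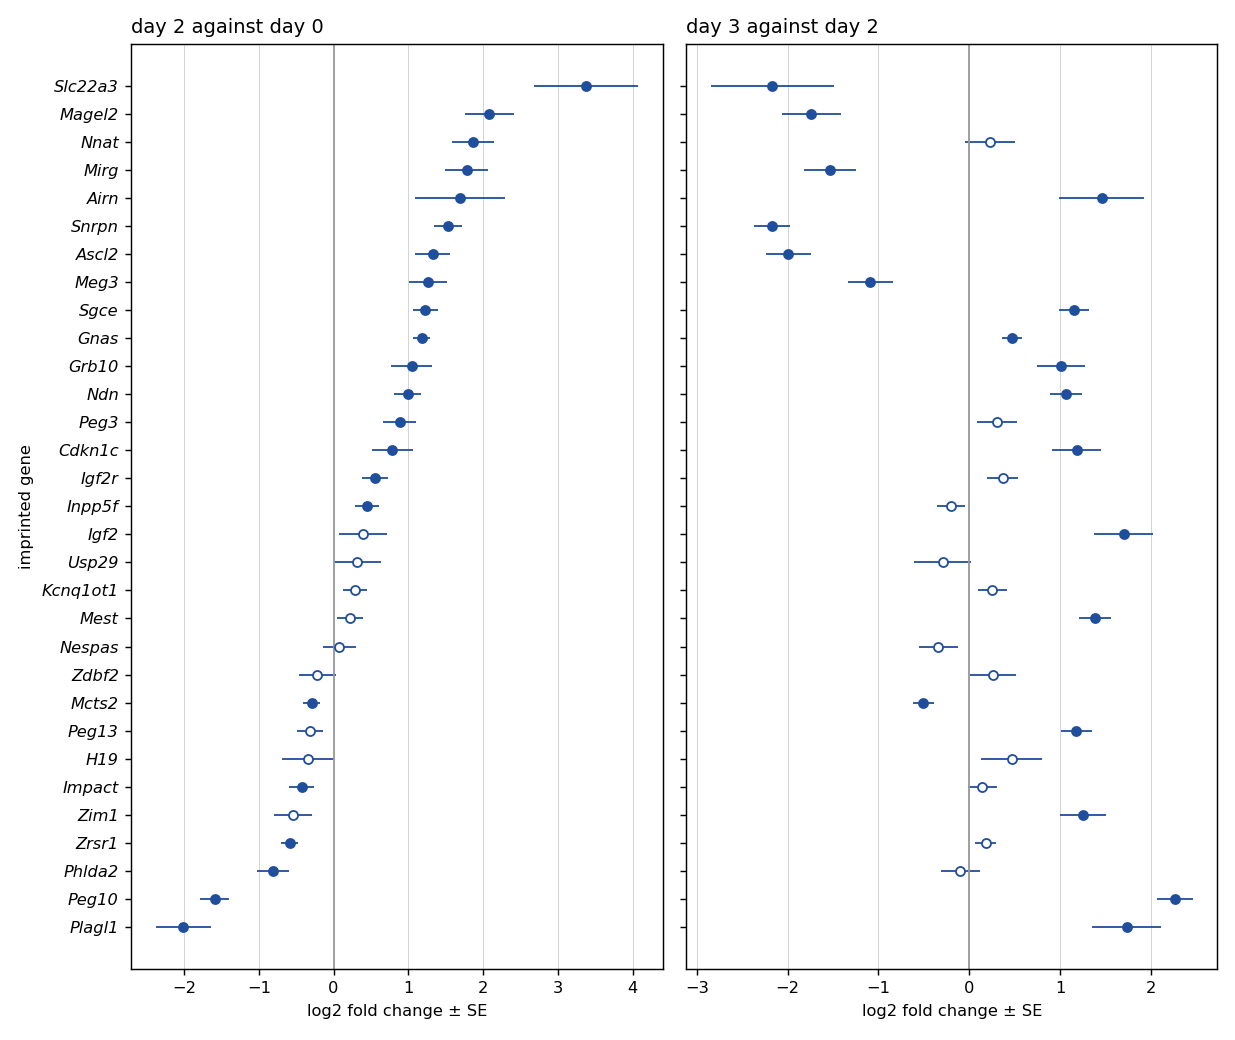
Log2 fold change (x axis, ± SE) of the 31 imprinted genes (y axis) from day 0 to day 2 (left) and from day 2 to day 3 (right) over all lines, filled where the adjusted p was below 0.05. Slc22a3, Magel2, Mirg, Snrpn, Ascl2 and Meg3 are right of 0 in the left panel and left of 0 in the right panel, and Peg10 and Plagl1 the reverse.

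Genotype and day were read together for Magel2, a MAGE-family gene of the Prader-Willi cluster. In controls it was at 7.26 ± 1.97 CPM at day 0, 21.7 ± 3.40 at day 2 and 4.66 ± 1.38 at day 3 (mean ± SD, n = 3). In the knockout it was at 3.37 ± 0.89, 22.9 ± 2.07 and 8.89 ± 2.74. The groups did not overlap at day 0, where the knockout was lower, nor at day 3, where it was higher, but neither difference passed (edgeR adjusted p = 0.0782 and 0.0532; DESeq2 called both, and edgeR without line 19 at day 2 did too). Plagl1 was spread within the knockout at day 3, with 53.3 CPM in line 319 against 12.4 in line 14 and 16.5 in line 19, and 10.3 to 12.9 in controls.

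A list of 24 genes that write, erase or protect imprints, among them Zfp57, Trim28, Dnmt1 and Uhrf1, was measured in full. By edgeR 0 passed between genotypes at day 0, day 2 or day 3. At an unadjusted p under 0.05 there were 4, 3 and 3 of the 24, and 1946, 3735 and 4002 of all 18273 genes. Between days, 15 passed to day 2 (4 higher, 11 lower, where 27.2% and 23.8% of all genes passed). To day 3, 12 passed (2 higher, 10 lower, where 23.3% and 20.2% of all genes passed). Dppa3, which shields methylated alleles in the early embryo, was lower in line 19 by 1.77 ± 0.36 log2 units (adjusted p = 0.0157) and in line 319 by 1.51 ± 0.39 (0.0257). Of 37 tested genes from a second list of imprinted genes, Peg12 also differed among the lines. Its log2 difference was -1.26 ± 0.28 in line 14, -1.11 ± 0.28 in line 19 and 1.48 ± 0.30 in line 319 (adjusted p = 0.0468, 0.0339 and 0.0075), with an adjusted p of 0.0064 for a difference among lines. Gab1 was lower in line 19 (-0.69 ± 0.17, adjusted p = 0.0334) and line 319 (-0.90 ± 0.19, 0.0104). Between genotypes, Tfpi2 was lower at day 3 (-2.78 ± 0.60, adjusted p = 0.0175). Of 19 tested host or neighbouring genes, Tnnt3, a muscle gene near H19, was lower at day 0 (-2.33 ± 0.45, adjusted p = 0.0189), when summed mesendoderm markers were lower too; their part in it was not tested.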

How the data were processed

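Polyadenylated RNA of 18 mouse embryonic stem cell samples was sequenced as 72 libraries. Per the submitters' processing notes, the authors used bcl2fastq 2.17.1.14, STAR 2.4.0k, SAMtools and HTSeq on mm10; settings, annotation release and use of strand are not given in the sources used here. The deposited values are whole-number read counts for Ensembl transcripts. Transcripts of a gene share reads, so 1 transcript stood for each gene, after 108214 of 110379 identifiers were matched to GENCODE M21 (GRCm38). Unmatched identifiers held 1.44% to 2.46% of counts and were left out. The 4 technical libraries of a sample were summed. Their counts differed by little more than sampling noise (chi-square per degree of freedom 1.01 to 1.03 over genes with at least 40 counts).

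Counts were tested in edgeR 4.0.16 (R 4.3.3; quasi-likelihood, TMM, filterByExpr), with p-values adjusted by Benjamini-Hochberg over 18273 genes and called below 0.05. Genotype was tested in a fit of 6 groups of genotype and day with genetic background as a term. Day and line were tested in a fit of line and day, in which the days of a line stand as its samples; each fit had 11 residual degrees of freedom. SE is the log2 fold change over the root of the F statistic. Alternatives were RLE scaling, DESeq2 1.42.0, no filter on low counts, summed transcripts, other terms and samples left out. The script was tested on simulated data. Samples of the same series on different days deviated together in 16 of 18 pairs (r over 0.1), each series being 1 line followed over days. Members, lists and the rule for named genes (all members counted; H19-Igf2 and Dlk1-Meg3 members and genes called by genotype or in the test among lines given in each sample; other list genes named if called by genotype or in 2 line contrasts) were chosen with earlier results of these data known. Fibroblast, primitive endoderm, mesendoderm, trophoblast, stem cell and neural marker lists were summed as CPM. Promoter and motif sequences are RefSeq's (GRCm38.p6); 26 members matched outside chromosome 18, and H19 was not among them.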

Additional observations from a re-analysis of the deposited data

Results flagged for a closer look

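The knockout-minus-control difference depended on the line for 3 imprinted genes, by the edgeR test of equal differences in lines 14, 19 and 319. Each adjusted p here is of that joint test, which also covers line 19 against line 14, and not of the printed difference alone. For H19, line 319 minus the mean of lines 14 and 19 was 3.733 on the log2 scale (adjusted p = 0.0135), with H19 lower in both lines from HM1 and not in line 319. For Peg10 it was 1.819 (adjusted p = 0.0292). Line 319 was above its control for Peg10 and both lines from HM1 were below theirs, line 19 mostly at day 2. For Zrsr1, line 319 minus the mean of lines 14 and 19 was 0.996 (adjusted p = 0.0433). The 46 other tested genes within 5 Mb were lower in each of lines 14, 19 and 319 (medians -0.35, -0.39 and -0.25). Each line is 1 clone, so line and Nup133 loss cannot be told apart within a line.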

How the results depend on the processing

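The counts of imprinted genes called between genotypes were small, and settings moved them by over 1.5 times. The number of all genes called also changed with the samples used, as given above. The counts in this section stand without that share, so they describe the processing and are not a result about imprinted genes. At days 0, 2 and 3 (1, 1 and 1 in edgeR) DESeq2 called 4, 4 and 6, and the fit without line 19 at day 2 called 3, 0 and 7. RLE scaling called 2 at day 3, the fit with no filter on low counts 2 at day 0 and 2 at day 3, and HM1-derived lines alone 2 at day 0 and 5 at day 3. With no background term 0 passed at day 0 and 0 at day 2, as with transcripts summed (0 and 0). Between lines, DESeq2 called 5 in line 14, 8 in line 19, 1 in 1A4 against HM1 and 5 for the difference among lines. Without line 19 at day 2, 6 were called in line 14 and 2 in 1A4. In line 319, 2 passed with no filter and 3 with summed transcripts. With 1 mean per line and day, where the spread comes from the HM1 replicates alone, the counts were 17 (line 14), 20 (line 19), 13 (line 319), 11 (1A4 against HM1), 11 (line 19 against 14) and 20 (difference among lines). They were not set against the share of all genes called in that fit. Leaving out 1 replicate gave 0 to 5 at day 0, 0 to 6 at day 2, 0 to 7 at day 3, 0 to 6 in line 14, 0 to 5 in line 19, 1 to 9 in line 319, 0 to 2 in 1A4 and 0 to 1 for the difference among lines, which was not run where a line it needs was left out.

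With the series as a replicate block, 20 members passed from day 0 to day 2 and 19 from day 2 to day 3, and leaving out replicates gave 16 to 21 and 17 to 20. The labels' replicate numbers join different lines across genotypes, so they were used to pair days and not genotypes. Only single-gene results called by edgeR with all samples were followed, most of them between days. Of these, 574 values under alternatives still passed and 97 no longer did, with no sign reversed. Of the calls between genotypes, Grb10 held in 6, Nespas in 5 and Phlda2 in 10 of 13 alternatives. Low counts limit Airn, Slc22a3, Ascl2, Usp29 and Nespas, and each knockout line is 1 clone.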
